A study of Mus musculus with 8 samples.

Results

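The solute carrier families that move amino acids across membranes were followed gene by gene in the epithelium of the mouse large intestine. The members were all genes whose symbol is Slc1a, Slc3a, Slc6a, Slc7a, Slc36a, Slc38a or Slc43a followed by a number alone. This gave 61 of the 33696 genes in the deposited table: 7 Slc1, 2 Slc3, 19 Slc6, 15 Slc7, 4 Slc36, 11 Slc38 and 3 Slc43 genes. Symbols that end in a letter were left out. The Slc6 proline carrier Slc6a20a is therefore no member and is counted below with the partner proteins and other carriers. A few of them carry other substrates, such as serotonin, taurine, creatine or betaine, and were kept because they share the family. The study sequenced single epithelial cells of the colon and cecum from antibiotic-treated, germ-free and control mice, and its title names microbially produced nicotinic acid and the regional identity of the colon. The groups compared here were Abx_4D, Abx_14D, GF (germ-free) and Ctrl in the cecum, and Abx_14D and GF in the colon, with 4 loaded samples each. The labels call the treatment Abx without naming an agent, do not spell out 4D and 14D, and give no strain, age or genotype. Per the labels' protocols, EDTA-released epithelium was dissociated with Dispase II and DNase I, cells were pooled by condition, and EPCAM+CD45- cells were sorted to equal shares of CD44+ (proliferative) and CD44- (differentiated) cells, so the share of a cell class in a sample follows the sort. Nothing in the labels says that the numbered samples of a group are separate animals, so a p-value below sets a difference against sample-to-sample variation that could be technical alone.

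Amino acid carriers work as exchangers, as sodium- or proton-coupled pumps, or as facilitators. Several Slc7 light chains reach the membrane only when bound to a heavy chain of the Slc3 family, Slc3a1 (rBAT) at the brush border and Slc3a2 (4F2hc, CD98) mostly at the basolateral side. In absorptive epithelium the brush border carriers take up amino acids from the lumen and the basolateral ones pass them to blood, while dividing crypt cells use exchangers and cationic carriers to feed protein synthesis and the mTORC1 pathway. The transcription factor Atf4, which is translated when amino acids run short, is known to raise several carriers and biosynthetic enzymes.

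Of 24609 barcodes, 15916 held at least 500 transcripts and were used, with a median of 13472 transcripts per cell. Of 15441 well codes among them, 462 occurred in more than 1 sublibrary and 0 in more than 1 loaded sample. Cells were assigned to gates by the summed transcripts of marker lists that hold no transporter of these families, per 10000 transcripts of the cell, and counts were summed per loaded sample and gate wherever a sample held at least 20 cells of it. The absorptive markers (Krt20, Slc26a3, Car4 and 15 others) summed to between 20354 and 36686 CPM in the cecal absorptive gates, against 1659 to 2790 CPM in the cecal stem gates, where CPM is a count scaled to 1e6 transcripts of the sample's gate. In the colon their medians were 15055 CPM in GF and 15327 CPM in Abx_14D absorptive gates. Immune markers stayed at or below 4.73 CPM in every absorptive gate and 7.89 CPM in every stem gate, and reached 71.0 CPM in cecal goblet gates. The cecal absorptive samples held 397098 to 7433140 transcripts and the cecal stem samples 555890 to 4021907. Abx_4D replicate 2 and Ctrl replicate 1 of the cecum had too few absorptive cells, which left 3 samples in those groups. In 4 cecal samples (Abx_4D replicate 2, Abx_14D replicates 3 and 4, and GF replicate 4) the median mitochondrial share was above 0.5%. 1 member, Slc6a18, had 0 counts in the kept cells, which allows up to 3 counts, and 21 had fewer than 50. The low-count filter passed 17 to 31 members in any 1 of 19 comparisons and 33 members in at least 1. These were 5 of 7 Slc1, 2 of 2 Slc3, 7 of 19 Slc6, 9 of 15 Slc7, 2 of 4 Slc36, 6 of 11 Slc38 and 2 of 3 Slc43 genes, and the other 28 members were too low to test in any gate.

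The carriers divided between gates. In the cecum, absorptive-gate cells were set against stem-gate cells of the same 14 samples, with the loaded sample as a block. Slc6a14 (ATB0,+), a sodium- and chloride-coupled carrier of neutral and cationic amino acids, had 165 to 593 CPM (median 449) in cecal absorptive gates, against 10.6 to 56.9 CPM (median 18.8) over all 16 cecal stem gates. No absorptive gate was as low as any stem gate, and the log2 fold change was 4.36 ± 0.20 (SE, edgeR quasi-likelihood test, adjusted p = 1.6e-15). The creatine carrier Slc6a8 (2.77 ± 0.15), the heavy chain Slc3a1 (3.03 ± 0.22) and the glycine carrier Slc6a9 (0.81 ± 0.17) were the other carriers higher in absorptive than in stem gates. Slc1a2 (GLT-1), a high-affinity glutamate carrier best known from glia, had 0 to 2.52 CPM in absorptive gates, against 8.99 to 38.3 CPM in stem gates. Slc1a5 (ASCT2), a glutamine exchanger, had 15.1 to 63.1 CPM (median 49.8) in absorptive gates, against 117 to 272 CPM (median 175) in stem gates. Neither gene's ranges overlapped between the gates, and both were lower in absorptive gates (Slc1a2 by a log2 change of -4.26, Slc1a5 by -2.03). The light chain Slc7a6 (-3.25), the glutamine carrier Slc38a1 (-2.75), the light chain Slc7a5 (LAT1, -2.35), the cationic carrier Slc7a1 (CAT1, -2.04), the glutamate carrier Slc1a1 (EAAT3, -1.60), the neutral carrier Slc43a2 (LAT4, -1.48), the proline carrier Slc6a7 (-1.46), the neutral exchanger Slc1a4 (ASCT1, -1.16), Slc38a10 (-1.09) and Slc7a4 (-0.99) followed.

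In all, 4 of 24 tested members were higher and 16 lower in cecal absorptive gates. Of all genes tested, 84.5% passed in this comparison, 2565 up and 6013 down, so the members' share of 83.3% was near that of any gene. The members' median log2 change was -0.82 and that of all genes -0.46. Under TMM scaling the median of all genes moved by 0.48 on the log2 scale, and Slc3a2 (-0.24 as deposited library sizes give it) and Slc38a2 (-0.12) turned positive, at 0.23 and 0.36. Both then passed as higher in the edgeR test (adjusted p = 0.049 and 6.5e-07), so their place among the 16 lower members depends on the scaling. The 4 tested members that did not pass were the taurine carrier Slc6a6 (-0.04), Slc38a6 (0.08), the light chain Slc7a7 (0.12) and the proton-coupled carrier Slc36a1 (-0.16).

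In the colon, absorptive-gate cells were likewise set against stem-gate cells. Of 28 tested members, 7 were higher and 14 lower in colon absorptive than in colon stem gates of the same 8 samples, where 73% of all genes passed. Slc6a14 had 622 to 1020 CPM in colon absorptive gates, against 50.6 to 76.3 CPM in colon stem gates. The light chain Slc7a9, the partner of Slc3a1 in the b0,+ carrier of cystine and cationic amino acids, had 6.69 to 39.8 CPM in colon absorptive gates, against 0 to 0.789 CPM in colon stem gates. Both genes were higher in every colon absorptive gate than in any stem gate (Slc6a14 3.6 ± 0.10, Slc7a9 6.07 ± 0.39, log2). Slc3a1 (3.38), Slc6a8 (3.13), Slc36a1 (1.15), Slc1a1 (0.45) and Slc6a6 (0.40) were the other carriers that were higher. The glutamate carrier Slc1a3 (GLAST) was lower in absorptive gates (-4.63), as were Slc1a2 (-4.66), Slc7a6 (-4.26), the cationic carrier Slc7a2 (-3.50), Slc7a5 (-2.32), Slc1a4 (-1.93), Slc1a5 (-1.68) and Slc7a1 (-1.47). Of the calls in colon and cecum, 14 were shared in direction, 66.7% of the colon's and 70% of the cecum's, and Slc1a1 was called in opposite directions. Of all genes, 4888 were called lower and 2691 higher in the colon, and 6013 lower and 2565 higher in the cecum. The calls shared over all genes were not counted. The serotonin carrier Slc6a4 (-0.92), Slc6a7 (-0.98), Slc38a10 (-0.97), Slc38a1 (-0.71), Slc38a7 (-0.61) and Slc38a9 (-0.56) were the other carriers lower in colon absorptive gates. The 5 most abundant members that did not pass were Slc38a2 (0.15), Slc38a6 (-0.27), Slc7a7 (-0.04), Slc3a2 (-0.004) and Slc7a8 (-0.32).

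**Figure D1:**
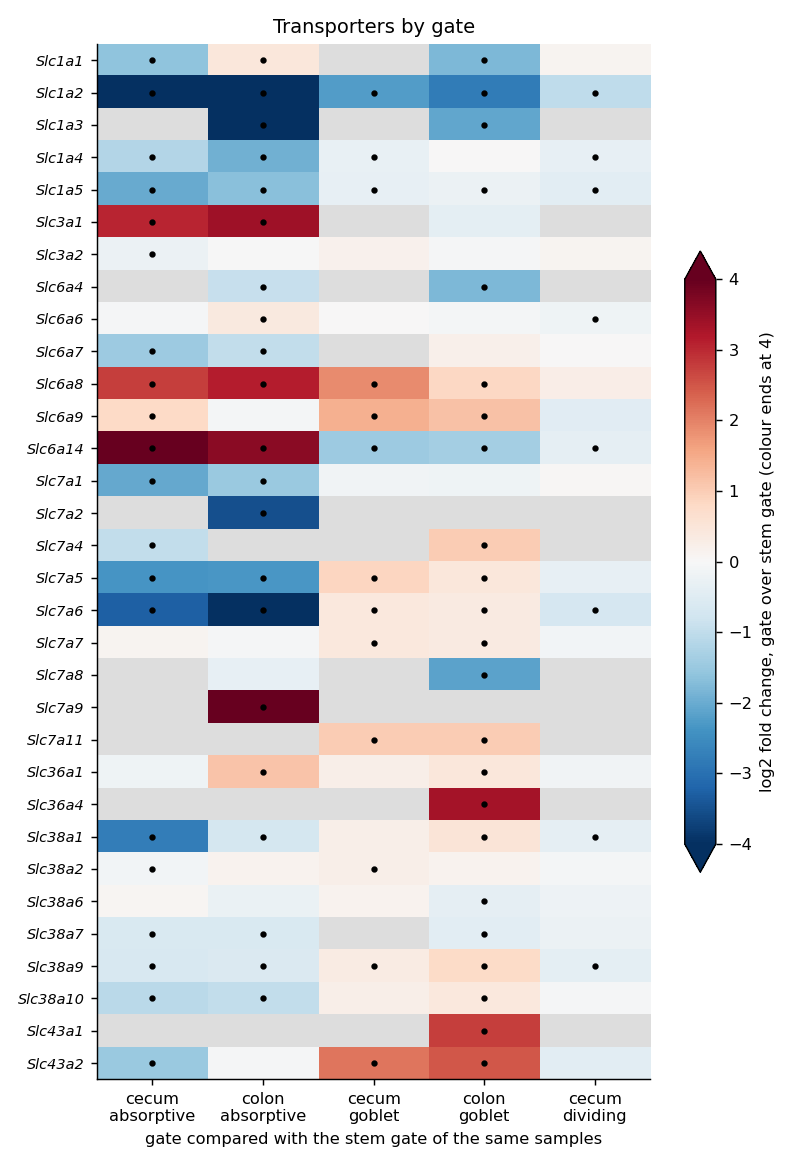
Log2 fold change of each tested transporter (rows) in 5 gates over the stem gate of the same samples (columns); red is higher in the gate, blue is higher in the stem gate, grey was not tested, and a dot marks an adjusted p under 0.05. Slc6a14, Slc6a8 and Slc3a1 are red in both absorptive columns, and Slc43a2 is red in both goblet columns.

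Goblet gates were compared with stem gates in the same way. Cecal goblet gates also held immune markers at 16.3 to 71.0 CPM and enteroendocrine markers at 1.45 to 71.7 CPM, whose part in the results was not tested. In the cecum 9 of 20 tested members were higher and 4 lower in goblet than in stem gates of the same 10 samples (57.7% of all genes passed), and in the colon 14 of 30 were higher and 9 lower over 9 samples, 1 of them Abx_4D (63.7% of all genes). Slc43a2 (LAT4), a facilitator of branched-chain amino acids and phenylalanine, had 23.5 to 69.4 CPM (median 42.2) in cecal goblet gates, against 3.98 to 28.2 CPM (median 10.1) over all cecal stem gates. The ranges overlapped between 23.5 and 28.2 CPM, and the log2 fold change was 2.13 ± 0.23 in the cecum and 2.47 ± 0.15 in the colon. Slc36a4, a member of the Slc36 family, had 9.44 to 33.6 CPM in colon goblet gates of the Abx_14D and GF groups, against 0.395 to 3.42 CPM in the stem gates, a log2 fold change of 3.32 ± 0.26. Slc6a9 (cecum 1.43, colon 1.19), the cystine/glutamate exchanger light chain Slc7a11 (1.03, 1.00), Slc6a8 (1.89, 0.82), Slc7a5 (0.85, 0.45), Slc7a6 (0.43, 0.36), Slc7a7 (0.42, 0.37) and Slc38a9 (0.32, 0.77), which is known as a lysosomal arginine sensor for mTORC1, were higher in goblet gates of both tissues. Slc6a14 (-1.45, -1.37), Slc1a2 (-2.22, -2.80) and Slc1a5 (-0.31, -0.24) were lower in both. The calls shared in direction numbered 11, which is 47.8% of the colon's and 84.6% of the cecum's. Those shared over all genes were not counted. Slc38a2 (0.23) was called higher and Slc1a4 (-0.31) lower in cecal goblet gates. In the colon Slc43a1 (LAT3, 2.76), Slc7a4 (1.02), Slc38a1 (0.53) and Slc36a1 (0.45) were called higher, and Slc7a8 (-2.15), Slc1a3 (-2.09), Slc6a4 (-1.81) and Slc1a1 (-1.79) lower. Not called were Slc6a6 (0.01), Slc7a1 (-0.15), Slc38a1 (0.25), Slc38a10 (0.23) and Slc38a6 (0.14) in the cecum, and Slc38a2 (0.13), Slc6a6 (-0.08), Slc7a1 (-0.16), Slc1a4 (0.02) and Slc3a2 (-0.04) in the colon.

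In cecal dividing gates the calls were all lower than in stem gates. Of 22 tested members, 0 were higher and 8 lower over 16 samples, where 49.8% of all genes passed. The members were Slc1a2 (-1.02), Slc7a6 (-0.68), Slc1a5 (-0.41), Slc38a9 (-0.40), Slc6a14 (-0.37), Slc38a1 (-0.36), Slc1a4 (-0.32) and Slc6a6 (-0.16). Slc38a2 (-0.08), Slc7a1 (0.03), Slc38a10 (-0.05), Slc38a6 (-0.20) and Slc7a7 (-0.10) did not pass.

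Enteroendocrine and tuft gates were too small for a test over samples, and their values are pooled descriptions with exact 95% Poisson intervals that cover counting error only. The genes named here were chosen after their values were seen. The enteroendocrine gate held 66 cells of 20 samples and 1292336 transcripts. Slc38a11 had 706 counts there, 546 CPM (507 to 588), against 0.697 CPM (0.0177 to 3.89) in the tuft gate and 0.0605 CPM (0.0222 to 0.132) in the stem gate. It was seen in 29 of 66 enteroendocrine cells (43.9%) from 13 samples, against 6 of 6341 stem cells (0.0946%) and 0 of 1110 goblet cells, at median depths of 19510, 14500 and 17949 transcripts per cell. Among the 29 enteroendocrine cells with Slc38a11, 25 also held Tph1, the serotonin-synthesis enzyme, 0 held glucagon (Gcg) and 2 held peptide YY (Pyy). Among the other 37 cells, 1 held Tph1, 7 Gcg and 18 Pyy. Tph1, Gcg and Pyy are among the gate's own markers, so these counts describe the gate and test nothing. Slc6a19 (B0AT1), a neutral amino acid carrier of the brush border, had 70 counts in 21 of 66 enteroendocrine cells from 13 samples, 54.2 CPM (42.2 to 68.4), against 0 counts in the tuft gate, which allows up to 2.09 CPM, and 0.0504 CPM in the stem gate. Over all kept cells Slc6a19 had 122 counts, and its absorptive and goblet levels are not given here. Of its 21 enteroendocrine cells, 13 held Pyy and 5 Gcg, against 7 and 2 of the 45 enteroendocrine cells without it. Slc7a14 also had a pooled level of 27.1 CPM in the enteroendocrine gate, but its 35 counts came from 4 cells, and 24 of them from 1. Slc43a2 had 81.2 CPM in the enteroendocrine gate, 13.9 CPM in the tuft gate and 8.08 CPM in the stem gate, and Slc36a1 had 101, 34.9 and 20.4 CPM. The order was reversed for Slc1a5, with 52.6 CPM in the enteroendocrine gate, 73.9 CPM in the tuft gate and 188 CPM in the stem gate. Slc6a9 had 29.3 CPM (21.1 to 39.6) in the tuft gate, against 2.32 CPM in the enteroendocrine and 9.25 CPM in the stem gate. It was also higher in goblet gates of both tissues and in cecal absorptive gates than in stem gates, as given above.

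**Figure D2:**
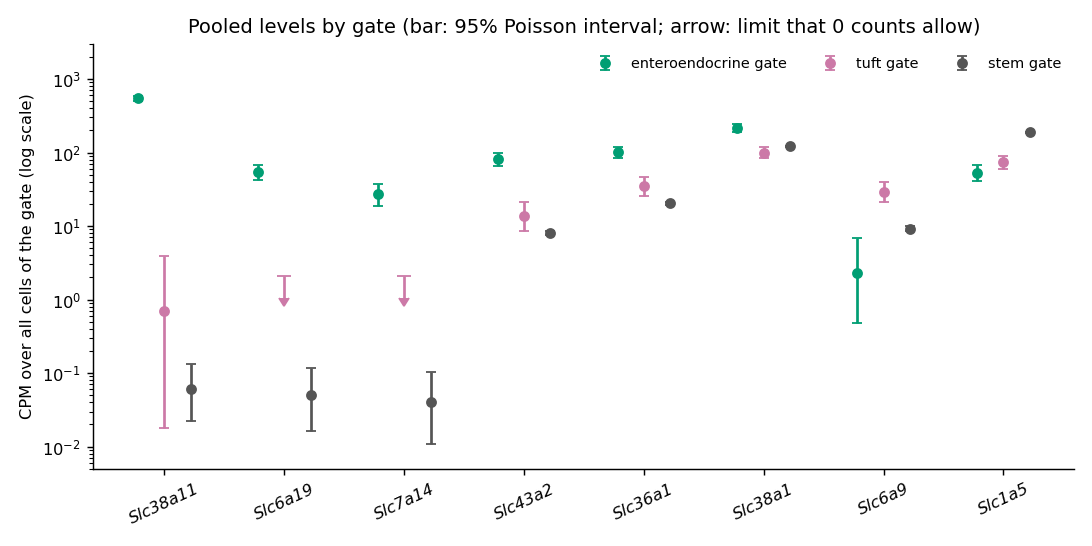
Pooled CPM (log scale) of 8 transporters over all cells of the enteroendocrine (66 cells), tuft (134) and stem (6341) gates, with 95% Poisson intervals and arrows where 0 counts were seen. Slc38a11 stands at 546 CPM in the enteroendocrine gate and below 1 CPM in the other gates, while Slc1a5 runs the other way.

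In cecal absorptive cells the comparison with Ctrl asks which carriers change when the microbiota is depleted or absent. The members that passed were all higher than in Ctrl: 2 of 23 tested members after Abx_4D, 4 after Abx_14D and 7 in GF. Of all 10127 genes tested, 3.13% passed for Abx_4D, 6.84% for Abx_14D and 11.7% for GF, and the members' shares were 8.70%, 17.4% and 30.4%. The members' median log2 change was 0.26, 0.38 and 0.33, and that of all genes 0.10, 0.12 and 0.14. TMM scaling moved the median of all genes by -0.09, -0.11 and -0.14, so a change of that size in any single carrier carries no direction. The 3 comparisons share their Ctrl samples, and their values are given side by side.

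Slc1a4 (ASCT1, ENSMUSG00000020142), which exchanges alanine, serine, cysteine and threonine, had 22.7, 36.3 and 27.4 CPM in Abx_4D, 42.6, 32.4, 40.6 and 43.9 CPM in Abx_14D, 20.4, 16.0, 33.6 and 21.2 CPM in GF, and 5.04, 9.06 and 9.80 CPM in Ctrl. Every sample of the other groups was above every Ctrl sample. Slc1a4 rose by a log2 fold change of 1.74 ± 0.32 after Abx_4D (adjusted p = 0.0021), 2.16 ± 0.29 after Abx_14D (3.5e-05) and 1.40 ± 0.30 in GF (0.0029), and it passed whichever single sample was left out. Slc1a5 (ASCT2, ENSMUSG00000001918), the glutamine exchanger of the same family, had 54.8, 27.4 and 36 CPM in Abx_4D, 58.4, 37.1, 50.2 and 50.4 CPM in Abx_14D, 63.1, 59.8, 49.3 and 55.4 CPM in GF, and 15.1, 21.4 and 17.1 CPM in Ctrl. Again no Ctrl sample reached the others. Its log2 fold change was 0.98 ± 0.27 after Abx_4D (0.047), 1.40 ± 0.24 after Abx_14D (0.00069) and 1.60 ± 0.24 in GF (0.0001). The Abx_4D call was lost without any 1 of Abx_4D replicates 1 and 4 and Ctrl replicates 2, 3 and 4, with adjusted p up to 0.17. It was also lost under TMM scaling, under DESeq2, with a lower marker cut, in the gate without Car1 and without the samples above 0.5% mitochondrial transcripts, while the Abx_14D and GF calls held without any single sample.

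The b0,+ pair moved in the same cells. Slc3a1 (ENSMUSG00000024131), the heavy chain, had 52.9, 61.4 and 26.3 CPM in Abx_4D, 19.7, 41.8, 67.0 and 44.5 CPM in Abx_14D, 63.1, 72.3, 60.9 and 38.5 CPM in GF, and 7.55, 13.2 and 24.0 CPM in Ctrl. Only Abx_14D replicate 1 fell within the Ctrl range. Slc3a1 rose by 1.40 ± 0.38 after Abx_14D (adjusted p = 0.026) and by 1.76 ± 0.38 in GF (0.0033). The Abx_14D call was lost without Abx_14D replicate 3 or Ctrl replicate 2 or 3, with adjusted p up to 0.17, and without the samples above 0.5% mitochondrial transcripts. Its light chain Slc7a9 (ENSMUSG00000030492) had 5.67, 0.930 and 2.28 CPM in Abx_4D, 7.10, 0, 1.61 and 1.41 CPM in Abx_14D, 6.79, 7.65, 5.51 and 4.65 CPM in GF, and 0, 0.412 and 0 CPM in Ctrl. All 4 GF samples were above all Ctrl samples, and Abx_14D was uneven. The Ctrl value rests on 1 count, against 52 counts in GF, a ratio of 31.9 with a 95% counting interval of 5.47 to 1280, and the GF call (adjusted p = 0.0049) was lost without Ctrl replicate 4 (0.066). With 9 counts in Abx_4D and 26 in Abx_14D the ratios were 11.3 (1.57 to 497) and 10.6 (1.74 to 433), and neither passed.

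Slc7a7 (y+LAT1, ENSMUSG00000000958) exports cationic amino acids at the basolateral side together with the heavy chain Slc3a2. It had 52.9, 24.7 and 26.3 CPM in Abx_4D, 36.3, 37.1, 36.3 and 31.3 CPM in Abx_14D, 52.4, 28.5, 32.0 and 28.5 CPM in GF, and 22.7, 16.9 and 11.2 CPM in Ctrl. No sample of the other groups was as low as the highest Ctrl sample. Slc7a7 rose by 1.21 ± 0.30 after Abx_14D (adjusted p = 0.015) and 1.18 ± 0.30 in GF (0.013), and for Abx_4D the log2 difference was 1.05 ± 0.33 (0.093). Leaving out Ctrl replicate 4 ended both calls, and leaving out Ctrl replicate 3 ended that of Abx_14D, with adjusted p up to 0.16. The Abx_14D call was also lost with a lower marker cut and without the samples above 0.5% mitochondrial transcripts. Its partner Slc3a2 had 15.1, 23.7 and 29.7 CPM in Abx_4D, 15.8, 15.5, 23.0 and 21.7 CPM in Abx_14D, 19.4, 20.2, 25.4 and 22.2 CPM in GF, and 20.1, 24.3 and 19.6 CPM in Ctrl. All groups overlapped and none passed. The other Slc3a2 light chains were low in these cells. Slc7a5 had 5.67, 2.33 and 5.14 CPM in Abx_4D, 7.10, 2.70, 6.46 and 5.63 CPM in Abx_14D, 2.91, 2.78, 2.76 and 0.664 CPM in GF, and 0, 0.412 and 8.35 CPM in Ctrl, where 1 sample alone was high. Slc7a8 had 9.45, 1.40 and 0 CPM in Abx_4D, 0.789, 2.70, 1.61 and 2.82 CPM in Abx_14D, 0.970, 2.09, 1.1 and 3.32 CPM in GF, and 0, 0.824 and 0.363 CPM in Ctrl. Slc7a11 had 0, 3.26 and 4 CPM in Abx_4D, 1.58, 4.05, 14 and 3.94 CPM in Abx_14D, 0, 0, 1.93 and 0 CPM in GF, and 0, 2.06 and 1.09 CPM in Ctrl. Levels of a few counts per sample such as these leave little to compare.

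In GF, Slc38a1 and Slc6a6 passed as well. Slc38a1 (SNAT1), a sodium-coupled glutamine carrier, had 16.5, 19.5, 53.5 and 34.2 CPM in GF, against 17.6, 7.82 and 14.5 CPM in Ctrl, and the groups overlapped. Slc6a6 (TauT), the taurine carrier, had 293, 191, 229 and 313 CPM in GF, against 191, 153 and 142 CPM in Ctrl, and the groups met at 191 CPM. The log2 fold changes were 1.43 ± 0.45 (adjusted p = 0.04) and 0.69 ± 0.21 (0.036). Both calls were lost under TMM scaling, with a lower marker cut and without the samples above 0.5% mitochondrial transcripts, and that of Slc38a1 under DESeq2. That of Slc38a1 was also lost without any 1 of Ctrl replicates 2, 3 and 4 or GF replicates 3 and 4, and that of Slc6a6 without any 1 of Ctrl replicates 3 and 4 or GF replicates 1 and 4. Among the most abundant carriers that did not pass, Slc6a14 had 509 ± 104 CPM in Abx_4D, 412 ± 184 CPM in Abx_14D, 449 ± 61.3 CPM in GF and 420 ± 56.5 CPM in Ctrl. Slc38a2 (SNAT2) differed from Ctrl by 0.17, 0.27 and 0.11 (log2, Abx_4D, Abx_14D and GF), Slc6a8 by 0.31, 1.00 and 0.50, Slc38a9 by -0.36, -0.21 and -0.23, and Slc38a6 by 0.33 in GF. Slc6a6 differed by 0.41 in Abx_4D and 0.37 in Abx_14D.

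**Figure D3:**
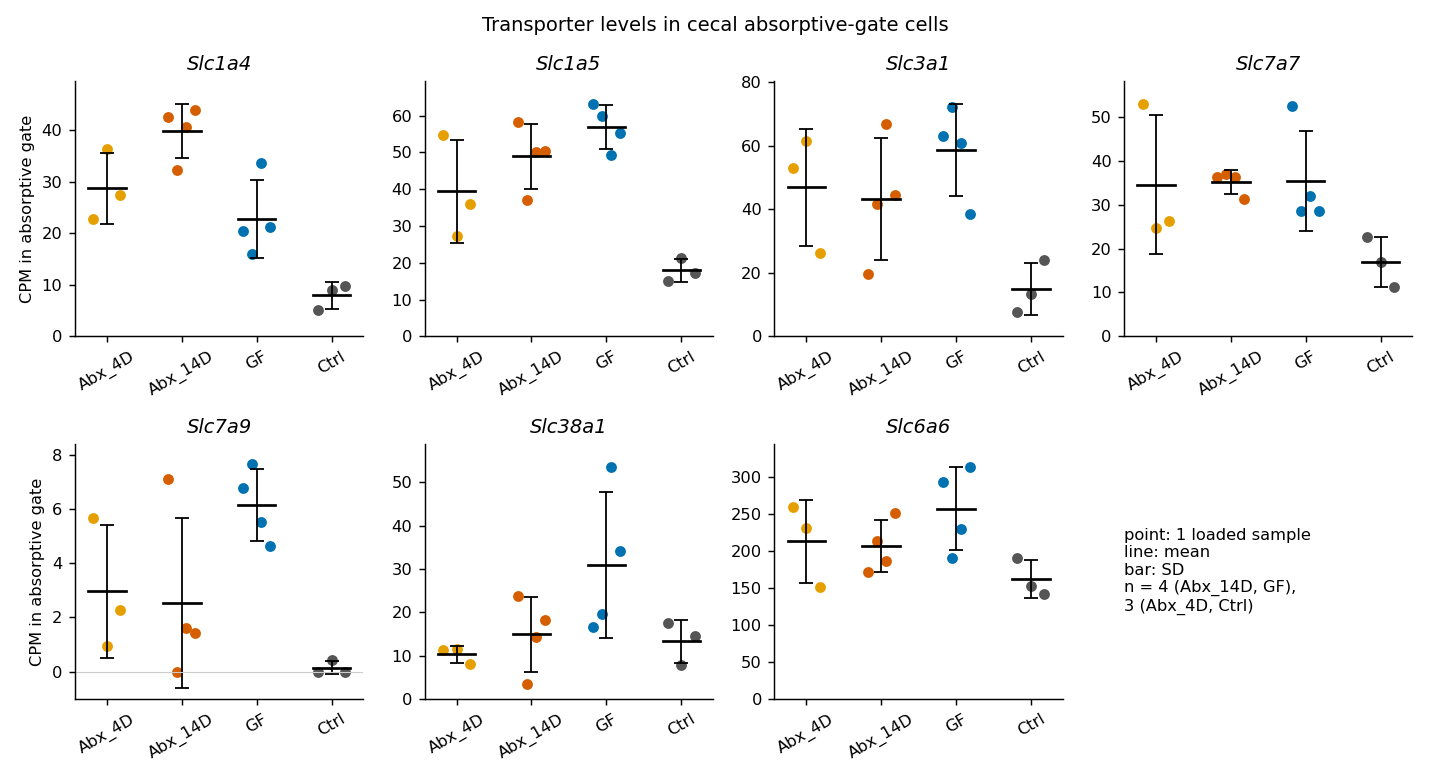
CPM of 7 transporters in cecal absorptive-gate cells, 1 point per loaded sample, with mean and SD (n = 3 in Abx_4D and Ctrl, 4 in Abx_14D and GF; the groups run Abx_4D, Abx_14D, GF, Ctrl). The Slc1a4 and Slc1a5 points of Ctrl lie below all others, at 5.04 to 9.80 and 15.1 to 21.4 CPM, and Slc7a9 in Ctrl rests on 1 count.

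Marker levels in the same summed cells were as follows. The gate's own absorptive markers summed to a median of 26195 CPM in Abx_4D, 29316 CPM in Abx_14D, 21756 CPM in GF and 27348 CPM in Ctrl. Stem markers summed to a median of 1212 CPM in Abx_4D, 1385 CPM in Abx_14D, 1239 CPM in GF and 1494 CPM in Ctrl absorptive gates. Dividing-cell markers summed to 210 CPM in Abx_4D, 132 CPM in Abx_14D, 138 CPM in GF and 88.9 CPM in Ctrl. Goblet markers summed to 104, 113, 137 and 102 CPM and tuft markers to 28.4, 27.9, 17.5 and 40.4 CPM in the same order. The part of these sums in the results was not tested. Over all cells of each sample, without gating, none of the carriers called in cecal absorptive gates passed. The members' calls over all cells were 0 for Abx_4D, 1 for Abx_14D and 2 for GF, all lower than in Ctrl, among them Slc1a1 in Abx_14D and Slc7a11 in GF. Of all 13376 genes tested over all cells, 66, 286 and 691 passed in the same order.

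The promoters of the carriers were searched for TGATGNAA, the core of the element that Atf4 and C/EBP proteins are known to bind, and for the cAMP response element TGACGTCA, on both strands. Sequences came from RefSeq promoter windows (GRCm38.p6, 250 bases before to 50 after each start), of which 64 windows of 43 members matched by symbol. TGATGNAA was present in 3.97% of all 32851 windows and in 5 member windows of 4 genes, Slc1a4, Slc7a7, Slc7a11 and Slc6a21. The longer TGATGNAAT, which overlaps it, was in 0.965% of all windows and in Slc6a21 alone among the members, and TGACGTCA was in 1.79% of all windows and in Slc38a6 alone. The matches of the 3 genes that changed in cecal cells are shown 5′ to 3′ on the gene's strand, with the motif, on either strand, in capitals.
Slc1a4, chr11:20332690-20332737, minus strand: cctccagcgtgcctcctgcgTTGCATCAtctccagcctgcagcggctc
Slc7a7, chr14:54417918-54417965, minus strand: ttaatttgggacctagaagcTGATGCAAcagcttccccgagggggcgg
Slc7a7, chr14:54418058-54418105, minus strand: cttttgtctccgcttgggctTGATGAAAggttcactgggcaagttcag
Slc7a11, chr3:50443652-50443699, minus strand: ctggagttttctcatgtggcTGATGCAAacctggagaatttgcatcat
Slc7a11, chr3:50443633-50443680, minus strand: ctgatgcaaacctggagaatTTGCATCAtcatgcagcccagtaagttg
The matches begin 4 bases before the annotated start in Slc1a4, 1 and 141 bases before it in Slc7a7, and 66 and 47 bases before it in Slc7a11. A match describes letters in this window and no site or binding was measured.

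Genes of the integrated stress response and the amino acid response were counted from a list of 29, of which 18 were tested in cecal absorptive cells. This amino acid response list holds regulators, such as Eif2ak4 and Atf4, as well as target genes, so its shares are not shares of targets. After Abx_4D 3 were higher and 1 lower than in Ctrl, after Abx_14D 7 were higher and 1 lower, and in GF 1 was higher and 2 lower. These are 22.2%, 44.4% and 16.7% of the list, beside 3.13%, 6.84% and 11.7% of all genes. The list's median log2 change was 0.63, 0.90 and 0.46, beside 0.10, 0.12 and 0.14 for all genes. Asns, asparagine synthetase, averaged 13.2 ± 0.578 CPM in Abx_4D, 18.4 ± 6.12 CPM in Abx_14D, 4.46 ± 1.58 CPM in GF and 1.48 ± 1.90 CPM in Ctrl. It rose by 2.62 ± 0.52 after Abx_4D (adjusted p = 0.0048) and 3.17 ± 0.47 after Abx_14D (0.0001). The mitochondrial folate enzyme Mthfd2 rose by 2.90 and 3.06, and Atf4 by 0.98 and 0.96, and Nupr1 (2.67), Eif4ebp1 (1.87), Atf5 (1.51) and Wars1 (0.84) rose after Abx_14D. Calls of genes that are not members, here and below, were not checked under other settings or without single samples. Without the samples above 0.5% mitochondrial transcripts, 269 of 9852 genes passed after Abx_14D, against 693 of 10127 in the main fit. In GF the kinase Eif2ak4 (GCN2), which senses uncharged tRNA, rose by 0.98, and Atf3 (-1.36) and Ppp1r15a (-1.26) fell. Sesn2, a stress-induced leucine sensor, fell by 1.45 after Abx_4D and 1.14 after Abx_14D. Of 27 tested genes of amino acid sensing and mTORC1, 1 rose after Abx_4D, 3 after Abx_14D and 3 in GF, and none fell. Their shares of 3.70%, 11.1% and 11.1% were near those of all genes for Abx_4D and GF. Those of Abx_14D and GF were the folliculin partners Fnip1 (1.46 and 1.19) and Fnip2 (1.71 and 1.08) and the Ragulator subunit Lamtor3 (0.97 and 0.86), and that of Abx_4D was Fnip2 (1.34). Of 27 enzymes of amino acid and glutathione metabolism, glutamate dehydrogenase Glud1 rose after Abx_14D (0.93) and in GF (1.13), and alanine aminotransferase Gpt fell in GF (-1.40). The enzymes' shares of 0%, 3.7% and 7.41% (Abx_4D, Abx_14D and GF) were below those of all genes. Of 13 partner proteins and other carriers, the mitochondrial aspartate/glutamate exchanger Slc25a12 rose after Abx_4D (1.12) and Abx_14D (0.87), and the proline carrier Slc6a20a rose in GF (1.46). Their share was 7.69% in each comparison, beside 3.13%, 6.84% and 11.7% of all genes.

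In cecal stem-gate cells most calls were lower than in Ctrl. Of 28 tested members, 1 fell after Abx_4D, 2 fell and 1 rose after Abx_14D, and 3 fell and 1 rose in GF, where 0.489%, 1.86% and 5.40% of all 10639 genes passed. The members' median log2 change was -0.17, -0.07 and -0.04, and that of all genes 0.03, 0.03 and -0.01. Slc6a14 (ENSMUSG00000031089) had 15.5, 30.6, 17.0 and 11 CPM in Abx_4D, 12.8, 10.6, 20.5 and 22.9 CPM in Abx_14D, 23.4, 15.3, 13.4 and 12.2 CPM in GF, and 56.4, 53.8, 56.9 and 43.6 CPM in Ctrl. All 12 samples of the other groups were below all 4 Ctrl samples. It fell by 1.64 ± 0.28 after Abx_4D (adjusted p = 0.0055), by 1.71 ± 0.27 after Abx_14D (0.0007) and by 1.68 ± 0.26 in GF (0.00031), and all 3 calls held without any single sample. Absorptive markers, the class in which Slc6a14 is most abundant, summed to a median of 1987 CPM in Abx_4D, 1959 CPM in Abx_14D, 2391 CPM in GF and 1895 CPM in Ctrl stem gates. Over all cells of the samples, where absorptive cells contribute, the log2 differences of Slc6a14 were -0.22, 0.23 and 0.10, and none passed.

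Slc1a1 (EAAT3, ENSMUSG00000024935), a sodium-coupled carrier of glutamate, aspartate and cysteine, had 15.9, 10.8, 20.3 and 12.3 CPM in Abx_4D, 23.8, 9.30, 5.14 and 4.44 CPM in Abx_14D, 24.5, 11.2, 13.7 and 13.0 CPM in GF, and 89.8, 31.1, 40.4 and 23.3 CPM in Ctrl. Ctrl replicate 4 lay just below the highest Abx_14D and GF samples, and Ctrl replicate 1 stood far above the rest. Slc1a1 fell by 1.97 ± 0.43 after Abx_14D (adjusted p = 0.015) and by 1.52 ± 0.41 in GF (0.03). The Abx_14D call was lost without Ctrl replicate 1 or Abx_14D replicate 2 or 3, and the GF call without Ctrl replicate 1 or GF replicate 2, 3 or 4, with adjusted p up to 0.2. Both calls were also lost without the 4 samples above 0.5% mitochondrial transcripts, and the GF call under DESeq2 as well. Abx_4D did not pass (-1.53, adjusted p = 0.13). Slc7a11 (xCT, ENSMUSG00000027737), the light chain that imports cystine in exchange for glutamate, had 6.56, 1.80, 7.98 and 12.3 CPM in Abx_4D, 6.79, 7.18, 14.8 and 5.18 CPM in Abx_14D, 1.06, 2.04, 3.48 and 3.47 CPM in GF, and 24.8, 15.6, 5.05 and 17.3 CPM in Ctrl. The GF samples were all below the lowest Ctrl sample. Slc7a11 fell in GF by 2.61 ± 0.49 (adjusted p = 0.0018), without any single sample too, and the antibiotic groups overlapped Ctrl and did not pass.

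Slc6a4 (SERT), the serotonin carrier, was the member that rose. It had 7.03, 1.80, 14.9 and 5.84 CPM in Abx_4D, 11.3, 14.4, 12.2 and 11.1 CPM in Abx_14D, 13.1, 10.7, 6.22 and 11.3 CPM in GF, and 3.42, 2.12, 5.77 and 1.5 CPM in Ctrl. The Abx_14D and GF samples lay above every Ctrl sample, while Abx_4D spread across them. Slc6a4 rose by 1.92 ± 0.45 after Abx_14D (adjusted p = 0.027) and by 1.63 ± 0.46 in GF (0.038), on 98 and 96 counts against 17 in Ctrl. The Abx_14D call was lost without any 1 of Abx_14D replicates 2 and 3 and Ctrl replicates 1, 2 and 4. The GF call was lost without any 1 of GF replicates 1, 2 and 4 and Ctrl replicates 1, 2 and 4. Both were also lost without the samples above 0.5% mitochondrial transcripts and with a marker cut 1.5 times as high. Dividing-cell markers summed to a median of 571 CPM in GF and 727 CPM in Ctrl stem gates, and their part in the GF results was not tested. The heavy chains and the other light chains did not pass in stem gates. Slc3a2 had 23.9, 28.8, 29.4 and 22.7 CPM in Abx_4D, 24.9, 25.4, 24.4 and 28.1 CPM in Abx_14D, 20.9, 16.8, 26.1 and 38.2 CPM in GF, and 30.8, 21.9, 28.8 and 21.1 CPM in Ctrl. Slc3a1 had 1.80 to 10.6 CPM and Slc7a9 0 to 0.752 CPM over the 16 samples. Slc7a7 had 24.8, 21.6, 24.7 and 20.1 CPM in Abx_4D, 26.4, 27.5, 33.4 and 25.9 CPM in Abx_14D, 38.3, 39.2, 23.9 and 31.3 CPM in GF, and 26.5, 29.7, 20.9 and 26.3 CPM in Ctrl. The groups of these genes overlapped. Slc7a5 had 35.6, 7.20, 17.8 and 14.9 CPM in Abx_4D, 29.8, 13.5, 13.5 and 21.5 CPM in Abx_14D, 29.4, 15.3, 11.2 and 22.6 CPM in GF, and 35.1, 12.7, 31.0 and 26.3 CPM in Ctrl. Slc7a8 had 10.3, 8.99, 1.09 and 0.649 CPM in Abx_4D, 6.42, 6.76, 5.14 and 1.48 CPM in Abx_14D, 17.7, 6.11, 5.47 and 8.68 CPM in GF, and 1.71, 2.83, 4.32 and 0 CPM in Ctrl. The GF samples of Slc7a8 were all above Ctrl, but the gene did not pass. The 5 most abundant members that did not pass against Ctrl were Slc38a2 (-0.17, -0.14 and -0.29 for Abx_4D, Abx_14D and GF), Slc6a6 (-0.20, -0.20 and 0.03), Slc1a5 (0.37, 0.29 and 0.34), Slc7a1 (0.02, 0.34 and 0.23) and Slc38a1 (-0.01, 0.02 and -0.17).

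**Figure D4:**
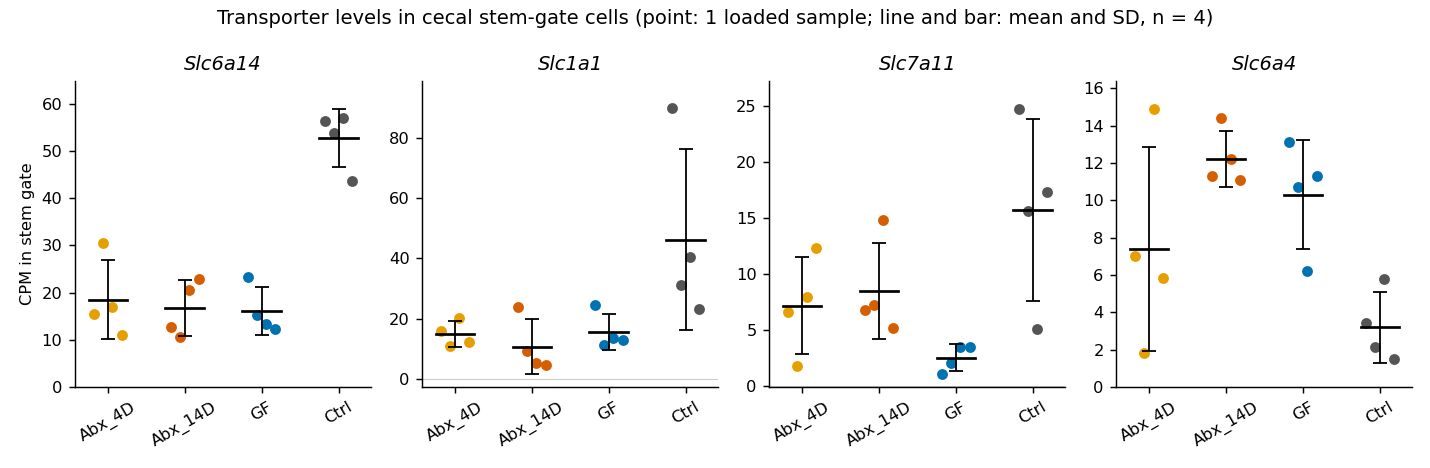
CPM of Slc6a14, Slc1a1, Slc7a11 and Slc6a4 in cecal stem-gate cells, 1 point per loaded sample, with mean and SD (n = 4 per group; the groups run Abx_4D, Abx_14D, GF, Ctrl). The Ctrl points of Slc6a14, at 43.6 to 56.9 CPM, lie above all others, and those of Slc6a4, at 1.5 to 5.77 CPM, lie below every Abx_14D and GF point.

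Of the amino acid response list, 20 genes were tested in cecal stem cells. After Abx_4D and Abx_14D 0 passed in the edgeR test, with 3 and 5 genes at an unadjusted p under 0.05, and in GF 1 rose (Eif2ak4, 0.55) and 3 fell, Nupr1 (-1.40), Phgdh (-1.13) and Ppp1r15a (-1.07). The GF share was 20% of the list, beside 5.4% of all genes. Of 26 tested sensing and mTORC1 genes 0 passed in any of the 3 comparisons, with 4, 2 and 5 at an unadjusted p under 0.05 (Abx_4D, Abx_14D and GF). Of 26 tested enzymes, the urea cycle enzyme Otc rose after Abx_14D (1.08) and in GF (1.08), the arginase Arg2 fell after Abx_14D (-2.05), and the branched-chain aminotransferase Bcat2 fell in GF (-0.83). The enzymes' shares were 0%, 7.69% and 7.69% (Abx_4D, Abx_14D and GF), beside 0.489%, 1.86% and 5.4% of all genes. Slc6a20a rose in GF (1.78).

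Between GF and Abx_14D no member passed in either tissue. In cecal absorptive cells 0 of 23 members passed with 2.38% of all genes called, and in cecal stem cells 0 of 28 with 0.226%. In colon absorptive cells 0 of 17 passed with 1.60% of all genes called, and in colon stem cells 0 of 31 with 1.04%. At an unadjusted p under 0.05 there were 4, 3, 4 and 4 members in the edgeR test, and DESeq2 called 0, 0, 1 and 1. Differences of the most abundant carriers, none of which passed, were as follows. In cecal absorptive cells the log2 difference of GF from Abx_14D was 0.12 for Slc6a14, 0.32 for Slc6a6, -0.16 for Slc38a2, -0.50 for Slc6a8 and 0.20 for Slc1a5. In cecal stem cells it was -0.16 for Slc38a2, 0.22 for Slc6a6, 0.05 for Slc1a5, -0.11 for Slc7a1 and -0.19 for Slc38a1. In colon absorptive cells it was 0.23 for Slc6a14, 0.22 for Slc6a6, -0.30 for Slc38a2, 0.58 for Slc6a8 and 0.93 for Slc38a1 (SE 0.29, adjusted p = 0.17). In colon stem cells it was 0.00 for Slc38a2, 0.25 for Slc6a6, 0.07 for Slc1a5, 0.19 for Slc38a1 and 0.16 for Slc7a1. Of the heavy chains in colon absorptive cells, Slc3a1 had 112, 92.0, 43.2 and 83.5 CPM in GF, against 57.7, 53.5, 56.4 and 33.6 CPM in Abx_14D, and Slc3a2 had 25.4, 24.7, 32.9 and 19.9 CPM in GF, against 23.8, 28.4, 27.3 and 18.3 CPM in Abx_14D. Slc7a7 had 41.2, 35.9, 35.0 and 7.95 CPM in GF, against 33.0, 33.5, 63.7 and 32.1 CPM in Abx_14D. The groups overlapped for all 3 genes. Outside the member list, the peptide carrier Slc15a1 (PEPT1) averaged 144 ± 70.1 CPM in GF and 44.5 ± 9.62 CPM in Abx_14D colon absorptive gates. It rose by 1.62 ± 0.33 (adjusted p = 0.013). Slc6a20a, an Slc6 carrier that the symbol rule left out of the members, rose by 1.98 ± 0.35 (0.0038) in the same gates. In cecal absorptive cells, 4 of 18 tested genes of the amino acid response list fell in GF relative to Abx_14D and 0 rose. Those that fell were Mthfd2 (-2.13), Asns (-2.04), Atf3 (-1.65) and Ppp1r15a (-1.33). Their share was 22.2% of the list, beside 2.38% of all genes, and over all genes 61 rose and 180 fell.

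Colon and cecum were compared within Abx_14D and within GF, 4 samples of each tissue. In absorptive cells 7 of 21 tested members were higher and 1 lower in the colon in Abx_14D, and 8 were higher and 0 lower in GF, where 14.6% and 11.6% of all genes passed. Slc1a1 had 99.8, 105, 116 and 59.5 CPM in colon Abx_14D, against 2.37, 2.70, 3.90 and 3.10 CPM in cecal Abx_14D absorptive gates. In GF it had 64.4, 39.3, 28.8 and 39.8 CPM in the colon, against 4.85, 6.96, 1.93 and 1.66 CPM in the cecum. Every colon sample was above every cecal sample, and the log2 fold changes were 4.82 ± 0.34 (adjusted p = 3e-10) and 3.82 ± 0.37 (8.3e-08). The basolateral light chain Slc7a8 (LAT2) had 18.3, 21.8, 20 and 18.3 CPM in colon Abx_14D, against 0.789, 2.70, 1.61 and 2.82 CPM in cecal Abx_14D. In GF it had 12.0, 16.8, 10.3 and 11.9 CPM in the colon, against 0.970, 2.09, 1.1 and 3.32 CPM in the cecum. The tissues did not overlap, and Slc7a8 was higher in the colon by 3.23 ± 0.40 in Abx_14D and 2.69 ± 0.44 in GF.

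Slc7a9 had 11, 6.69, 9.10 and 15.3 CPM in colon Abx_14D and 20.2, 35.9, 12.4 and 39.8 CPM in colon GF, while its cecal samples reached at most 7.10 CPM in Abx_14D and 7.65 CPM in GF. The tissues overlapped in Abx_14D and not in GF. The log2 fold changes were 2.35 ± 0.57 and 2.13 ± 0.46, and the Abx_14D call was lost when the marker Car1 was left out of the gate, with a marker cut 1.5 times as high and without the samples above 0.5% mitochondrial transcripts. The other carriers higher in the colon in both groups were Slc38a1 (1.82 in Abx_14D, 1.62 in GF), Slc36a1 (1.31, 2.11), Slc6a4 (2.05, 2.03) and Slc6a14 (0.81, 0.93). With the higher marker cut the Abx_14D calls of Slc38a1 and Slc36a1 and both calls of Slc6a14 were lost. The Abx_14D call of Slc36a1 was also lost without the samples above 0.5% mitochondrial transcripts. Slc6a8 passed in GF, at 192 ± 69.5 CPM in the colon and 51.4 ± 17.2 CPM in the cecum (1.84 ± 0.29, adjusted p = 8.7e-05), and had a log2 difference of 0.76 in Abx_14D (adjusted p = 0.079). Slc1a4 was lower in the colon in Abx_14D, with 17.4, 3.35, 18.2 and 12.2 CPM in the colon against 42.6, 32.4, 40.6 and 43.9 CPM in the cecum (-1.60 ± 0.36, adjusted p = 0.003). The colon call of Slc6a14 in Abx_14D was lost without Cecum Abx_14D replicate 4 or Colon Abx_14D replicate 3 or 4. It was also lost under TMM scaling and in the gate without Car1, and the GF call was lost without Colon GF replicate 1. Among the abundant members that did not pass, Slc38a2 differed by 0.18 in Abx_14D and 0.04 in GF, Slc6a6 by 0.21 and 0.12, Slc1a5 by 0.22 and 0.15, Slc3a1 by 0.16 and 0.56, and Slc7a1 by 0.02 in GF. The absorptive gate marker sum was lower in the colon than in the cecum, as given above, and its part in these differences was not tested.

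In stem cells 6 of 30 tested members were higher and 3 lower in the colon in Abx_14D, and 6 were higher and 2 lower in GF, where 24.3% and 12.7% of all genes passed. Slc1a3 (GLAST) averaged 28.0 ± 6.27 CPM in colon and 2.19 ± 0.882 CPM in cecal Abx_14D stem gates, and 17.4 ± 2.09 CPM in colon and 3.41 ± 2.25 CPM in cecal GF stem gates (SD, n = 4 each). The log2 fold changes were 3.58 ± 0.34 (adjusted p = 7.3e-08) and 2.33 ± 0.30 (7.4e-06). Slc6a14 had 51.3, 76.3, 69.1 and 50.6 CPM in colon Abx_14D and 62.4, 60.9, 73.6 and 74.1 CPM in colon GF, while its cecal samples reached at most 22.9 CPM in Abx_14D and 23.4 CPM in GF. Slc1a1 had 44.1, 53.0, 54.5 and 46.1 CPM in colon Abx_14D and 56.3, 58.1, 42.4 and 37.4 CPM in colon GF, against cecal maxima of 23.8 CPM in Abx_14D and 24.5 CPM in GF. Neither carrier overlapped between tissues, at log2 fold changes of 1.95 and 2.04 for Slc6a14 and 2.06 and 1.61 for Slc1a1 (Abx_14D and GF). Slc7a8 (1.90, 1.06) and the betaine carrier Slc6a12 (2.56, 2.53) were higher and Slc7a1 (-0.85, -0.59) and Slc38a9 (-0.50, -0.49) lower in the colon in both groups. The Slc6a12 calls rest on 4 cecal counts in Abx_14D and 5 in GF and were lost without Cecum Abx_14D replicate 1 and Cecum GF replicate 1. Of the 8 fits without 1 sample in each group, Slc6a12 was tested in only 5 for Abx_14D and 3 for GF. It passed in 4 and 2 of these. The GF call of Slc38a9 was lost without any 1 of the 8 samples and that of Abx_14D without any 1 of replicates 2, 3 and 4 of either tissue. The GF call of Slc7a8 was lost without Cecum GF replicate 2 or 3 or Colon GF replicate 1 or 2. In Abx_14D Slc38a6 (0.47) was also higher and Slc43a2 (-1.23) lower, the Slc38a6 call being lost without Cecum Abx_14D replicate 4 or Colon Abx_14D replicate 2 and that of Slc43a2 with the marker cut either higher or lower, and in GF Slc6a8 was higher (1.71). Slc38a2 (-0.16, 0.00), Slc6a6 (-0.16, -0.14), Slc1a5 (0.07, 0.09), Slc38a1 (-0.16, 0.23) and Slc1a4 (-0.12, 0.32) did not pass. The difference between the tissue contrasts of GF and Abx_14D was tested as an interaction. It passed for 0 of 21 members in absorptive cells, with the lowest adjusted p at 0.55, and for 0 of 30 in stem cells (0.72), with 2 and 6 members at an unadjusted p under 0.05.

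**Figure D5:**
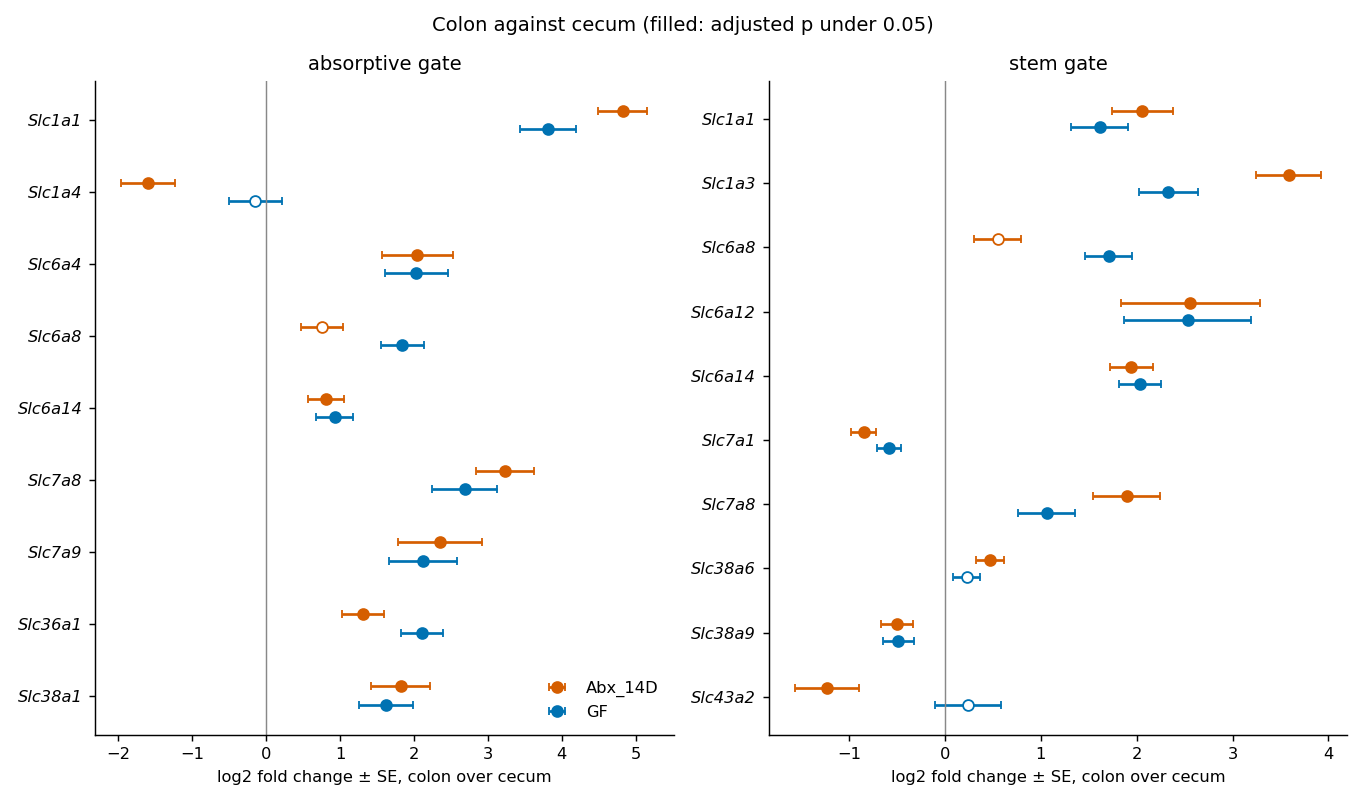
Log2 fold change ± SE of colon over cecum in the absorptive gate (left) and stem gate (right), within Abx_14D (orange) and GF (blue), for members that passed in at least 1 group; filled points have an adjusted p under 0.05. Slc1a1 lies at 4.82 and 3.82 in the absorptive gate, and Slc1a4 is the only filled absorptive point below 0.

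Among partner proteins and other carriers, Slc15a1 averaged 44.5 ± 9.62 CPM in colon and 3.40 ± 5.19 CPM in cecal Abx_14D absorptive gates, and 144 ± 70.1 CPM in colon and 2.84 ± 2.94 CPM in cecal GF absorptive gates, and it was higher in the colon by 4.12 ± 0.63 and 5.80 ± 0.61. Of 12 tested genes of the amino acid response list, 3 were lower in the colon in absorptive cells in Abx_14D, Asns (-2.44), Eif4ebp1 (-1.82) and Aldh18a1 (-1.20), and 1 was higher in GF, Atf3 (1.82). Of 25 tested enzymes, 6 were higher and 1 lower in colon absorptive cells in Abx_14D and 3 higher and 1 lower in GF. These are 28.0% and 16.0% of the enzymes, beside 14.6% and 11.6% of all genes, and the response list's shares were 25% and 8.33%. Ornithine aminotransferase Oat (1.77, 1.84) and glutamine synthetase Glul (0.93, 0.89) were higher and cystathionine beta-synthase Cbs (-2.10, -2.17) lower in both.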

How the data were processed

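Single-cell libraries of colon and cecum epithelium were deposited as 1 table of whole-number counts of transcripts per gene and cell, with a cell table that gives each cell's loaded sample. The authors made the counts from 8 multiplexed sublibraries. The submitters' processing notes name the mm39 build and Seurat. The deposited count of every cell summed to the total in the authors' cell table. Groups came from the loaded-sample names.

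Cells with at least 500 transcripts were kept. Gate cuts, in marker transcripts per 10000 of the cell, were 75 (absorptive; 100 was tried first), 20 (goblet), 15 (enteroendocrine), 40 (tuft), 20 (dividing) and 40 (stem), and cells over 5 for immune markers were left out. The cuts were set from the marker sums and the cells per sample, without looking at a member. No doublet caller was run, and cells that passed more than 1 differentiated gate (66) or a differentiated and the dividing gate (242) were dropped. Counts were summed per loaded sample and gate and tested with edgeR 4.0.16 (R 4.3.3), quasi-likelihood, scaled by library size after filterByExpr, with Benjamini-Hochberg adjustment over all genes tested and a threshold of 0.05. Standard errors are the log2 fold change over the square root of F. CPM are scaled to 1e6 transcripts of the sample's gate. DESeq2 1.42.0 was an alternative. The procedure was tested on simulated data.

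The members, gene lists and tests were chosen with earlier results of these data known. In each comparison, members past the threshold were named, at most 15 by absolute log2 fold change, with the 5 most abundant tested members that did not pass. A few beyond these are named to complete a count and were chosen after their values were seen. Members called in 2 or more comparisons between groups of a tissue, the 2 heavy chains and their light chains were given per sample. Intervals cover counting error only. Alternatives were TMM scaling, DESeq2, no low-count filter, other marker cuts, a gate without Car1, the replicate number as a block, samples left out and all cells without gating. Their single-gene results were kept for members only. The colon Abx_4D and Ctrl samples entered no group comparison because they held 1026 and 50 kept cells.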

Additional observations from a re-analysis of the deposited data

Results flagged for a closer look

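Of 140 groups of 4 samples checked for 14 members, 9 held 1 sample far from the other 3, where chance flags about 1 in 20. In absorptive cells Slc1a4 stood at 55.7 CPM in Colon GF replicate 4, with the others at 13.5 to 18.5 CPM. Slc7a7 had a high sample in Colon Abx_14D replicate 3 (63.7 CPM, others 32.1 to 33.5) and in Cecum GF replicate 1 (52.4 CPM, others 28.5 to 32.0), and a low one in Cecum Abx_14D replicate 4 (31.3 CPM, others 36.3 to 37.1). Slc7a5 was low in Cecum GF replicate 4, at 0.664 CPM, with the others at 2.76 to 2.91 CPM. Slc7a11 was seen in 1 sample of each GF group, at 1.93 CPM in Cecum GF replicate 3 and 1.12 CPM in Colon GF replicate 2, with the others at 0. In stem cells Slc1a5 was low in Cecum GF replicate 2 (163 CPM, others 191 to 194) and Slc38a1 high in Cecum GF replicate 1 (138 CPM, others 96.4 to 103). The cause was not tested for any of them.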

How the results depend on the processing

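The 33 members called at least once gave 139 calls, each of 1 member in 1 comparison. Of 2380 values of these calls under another setting or without 1 sample, 2130 kept their direction and passed. Another 241 kept the direction and did not pass, and 9 changed sign. Over all cells of a sample, without gating, the sign changed for Slc38a1 in GF against Ctrl of cecal absorptive cells (-0.24), Slc6a14 in cecal stem cells of Abx_14D (0.23) and GF (0.10), and, colon against cecum in Abx_14D, Slc1a4 in absorptive (0.005) and Slc43a2 in stem cells (0.11). In cecal absorptive against stem gates it changed for Slc3a2 under TMM scaling (0.23) and DESeq2 (0.13) and for Slc38a2 (0.36 and 0.26). Slc38a2 then passed as higher in edgeR with TMM scaling (adjusted p = 6.5e-07) and in DESeq2 (6.7e-07). Slc3a2 passed as higher in edgeR with TMM scaling (0.049) and did not pass in DESeq2 (0.31). The cause was not tested.

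Counts of called members moved as follows, with the main count in brackets. Counts over all genes moved as well, and some are given beside them. In cecal absorptive cells Abx_4D (2) gave 1 under TMM scaling, with a lower marker cut, without Car1 and with the replicate block, 4 without the low-count filter and 0 over all cells. Abx_14D (4) gave 8 without the filter, 2 without the samples above 0.5% mitochondrial transcripts and 1 over all cells. Of all genes, 693 of 10127 passed in its main fit and 1000 of 21174 without the filter. Without those samples 269 of 9852 passed, and over all cells 286 of 13376. GF (7) gave 4 with the lower marker cut and 2 over all cells, and GF against Abx_14D (0) gave 3 without the filter and 1 with the block. For GF against Ctrl, 1182 of 10127 genes passed in the main fit, 1035 of 10275 with the lower cut and 691 of 13376 over all cells. In cecal stem cells Abx_4D (1) gave 2 without the filter, 2 with the block and 0 over all cells. Abx_14D (3) gave 1 without the mitochondrial samples and 1 over all cells. Of all genes, 198 of 10639 passed in its main fit, 97 of 11492 without those samples and 286 of 13376 over all cells. GF (4) gave 7 without the filter, 2 without the mitochondrial samples and 2 over all cells, and GF against Abx_14D (0) gave 1 without the filter. For GF against Ctrl, 575 of 10639 genes passed in the main fit and 951 of 22331 without the filter. Without the mitochondrial samples 455 of 11492 passed, and over all cells 691 of 13376. In the colon GF against Abx_14D (0) gave 1 under DESeq2, 2 without the filter and 1 with the block in absorptive cells, and 1 under DESeq2 and without the filter in stem cells. Colon against cecum in absorptive cells gave 4 with a marker cut 1.5 times as high and 15 over all cells in Abx_14D (8), and 13 over all cells in GF (8). In stem cells it gave 15 over all cells in Abx_14D (9) and 13 in GF (8). Over all cells, 4876 of 13945 genes passed in Abx_14D and 3292 in GF. The absorptive gate gave 1342 and 1063 of 9196 genes in the main fit, and the stem gate 2899 and 1513 of 11940. With the higher cut the absorptive gate gave 587 of 9254 genes in Abx_14D. Cecal dividing gates (8) gave 14 without the filter and cecal goblet gates (13) 8 with the higher cut. Of all genes, dividing gates gave 4951 of 9948 in the main fit and 5153 of 23695 without the filter. Goblet gates gave 5362 of 9293 in the main fit and 5209 of 8785 with the higher cut. TMM scaling moved the median of all genes by 0.48 in cecal absorptive, 0.25 in colon absorptive and 0.19 in both goblet comparisons with stem gates.

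Leaving out 1 sample gave, in cecal absorptive cells, 1 to 2 calls for Abx_4D, 2 to 6 for Abx_14D, 3 to 7 for GF and 0 to 1 for GF against Abx_14D. In cecal stem cells it gave 1 to 1, 1 to 3, 2 to 4 and 0 to 0. In colon GF against Abx_14D it gave 0 to 1 in both gates. Colon against cecum gave 7 to 8 in Abx_14D and 7 to 9 in GF absorptive cells, and 6 to 11 and 5 to 7 in stem cells. Against stem gates it gave 17 to 20 for cecal absorptive, 7 to 10 for dividing, 9 to 13 for goblet, 19 to 22 for colon absorptive and 22 to 24 for colon goblet gates. In absorptive cells the Abx_4D count was 1 without Abx_4D replicate 1 or Ctrl replicate 2 or 3, the Abx_14D count 2 without Ctrl replicate 3, and the GF count 3 without Ctrl replicate 4. In stem cells the Abx_14D count was 1 without Abx_14D replicate 2 or 3 or Ctrl replicate 1, the GF count 2 without GF replicate 2 or 4 or Ctrl replicate 1, and the GF colon-against-cecum count 5 without Colon GF replicate 1 or 2.

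The replicate numbers were not taken as pairs, since nothing in the labels says that they are and not every pair correlated above 0.1. Same-numbered deviations correlated at -0.14 to 0.33 over 18 absorptive pairs (8 over 0.1) and at -0.25 to 0.28 over 24 stem pairs (9 over 0.1), with medians of 0.09 and 0.07 against -0.01 and -0.05 for other pairs, and 7 of 14 and 8 of 16 samples correlated best with their own number, which is a hint from the data and not from the design. With the replicate block Slc1a5 in Abx_4D (adjusted p = 0.067) and Slc6a6 in GF (0.058) of cecal absorptive cells and Slc38a9 in GF colon against cecal stem cells (0.061) did not pass. Cecal absorptive samples of as few as 397098 transcripts limit genes of a few CPM, such as Slc7a5, Slc7a8 and Slc7a9, to a handful of counts.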
